A study of Homo sapiens with 3 samples.

Results

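Wnt ligands, the proteins that acylate and release them, their receptors and their secreted antagonists were followed in HT29, an established human colon adenocarcinoma cell line, grown on 3 surfaces. Cells were cultured on a tissue culture polystyrene plate (labelled 2D, called TCP here), on a chitosan membrane (CS) or on a chitosan membrane grafted with hyaluronan (labelled chitosan_HA, called CSHA here), and the labels name no other treatment for any of the 3 cultures. Total RNA of each culture was hybridised in a single colour to 1 array, so each condition rested on 1 array, no difference could be set against the spread between cultures, and no p-value was computed. The members were chosen by symbol alone: every WNT and FZD gene with a number, SFRP1 to SFRP5, DKK1 to DKK4, LRP5, LRP6, ROR1, ROR2, RYK, PORCN and WLS. These names matched 44 genes of the 21614 named on the array, read by 54 probes, and 8 members had more than 1 probe. No probe carried the symbol SFRP3, which RefSeq names FRZB, and FRZB is not counted among the 44.

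Wnt proteins are secreted lipid-modified ligands. PORCN attaches the lipid in the endoplasmic reticulum and WLS carries the modified ligand to the cell surface, where it binds a Frizzled receptor. With LRP5 or LRP6 as the co-receptor the signal stabilises beta-catenin, whereas binding with ROR1, ROR2 or RYK feeds beta-catenin-independent routes such as planar polarity. SFRP proteins capture the ligand outside the cell, and DKK proteins such as DKK1 bind LRP5 and LRP6. In the colon, Wnt signals maintain the stem cells at the base of the crypt, and most colon cancers carry lesions of the pathway below the receptors.

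The promoters of the members on which the results turn are printed here for context, chosen as follows. Among the members above background on every array, WNT11, DKK1 and WNT10A were the lowest when each was ranked by the higher of its differences from TCP on CS and CSHA, and FZD5 and ROR1 were read by 10 spots each. RefSeq start sites of the GRCh38.p14 assembly matched 31 of the 44 members, and WNT11 was not matched. Each sequence runs 5′ to 3′ along the gene over the 250 bases before the start, in lower case. Capitals mark a match, on either strand, to one of 4 spellings of the TCF/LEF core, CTTTGAA or the same letters with AT, TA or TT as their last pair, the DNA letters that the transcription factors partnered by beta-catenin prefer.
DKK1 (chr10:52314031-52314280, plus strand): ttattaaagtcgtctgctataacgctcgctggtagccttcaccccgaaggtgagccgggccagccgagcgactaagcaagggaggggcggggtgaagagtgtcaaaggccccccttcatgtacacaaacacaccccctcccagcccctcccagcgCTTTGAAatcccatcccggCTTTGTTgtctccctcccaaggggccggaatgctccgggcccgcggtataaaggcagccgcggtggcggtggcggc
WNT10A (chr2:218880602-218880851, plus strand): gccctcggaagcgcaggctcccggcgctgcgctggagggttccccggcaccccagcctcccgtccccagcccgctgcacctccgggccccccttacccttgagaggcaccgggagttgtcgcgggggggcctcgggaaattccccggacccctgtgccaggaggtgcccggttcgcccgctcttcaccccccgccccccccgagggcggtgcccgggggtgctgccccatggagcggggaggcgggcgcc
FZD5 (chr2:207769907-207770156, minus strand): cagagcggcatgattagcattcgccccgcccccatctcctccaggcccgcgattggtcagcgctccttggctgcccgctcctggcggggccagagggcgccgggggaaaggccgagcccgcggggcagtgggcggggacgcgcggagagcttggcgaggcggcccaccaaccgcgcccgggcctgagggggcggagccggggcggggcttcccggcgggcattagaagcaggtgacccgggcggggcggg
ROR1 (chr1:63773767-63774016, plus strand): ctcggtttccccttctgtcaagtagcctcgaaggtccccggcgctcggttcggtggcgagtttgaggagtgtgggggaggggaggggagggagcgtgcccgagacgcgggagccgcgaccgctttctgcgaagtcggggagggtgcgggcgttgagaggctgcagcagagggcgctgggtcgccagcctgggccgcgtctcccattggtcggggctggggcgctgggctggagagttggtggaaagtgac
DKK1 held 2 matches, which began 95 and 76 bases before its start and did not overlap. It was the only member among the 31 with a match (3.23%), beside 4199 of all 35116 promoters in the table (12%). A match is a string of letters and was not tested for binding.

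A gene was called expressed where at least 1 of its probes was well above background by the scanner software. On every array 23 of the 44 members were expressed, beside 64.7% of all named genes on TCP, 66.7% on CS and 65.9% on CSHA. Of the 44, 22 were expressed on every array, 2 on some and 20 on none. All 10 colon epithelial markers were expressed on every array and none of 7 fibroblast markers was. Among endothelial markers PECAM1, VWF and CDH5 were above background on every array and KDR on none, with a summed signal of 135 to 140 on the linear scale over the 4 genes. Among leukocyte markers PTPRC and CD14 were above background on every array, with signals of 39.2, 52.5 and 38.6 for PTPRC and 834, 1408 and 1633 for CD14 on TCP, CS and CSHA, and CD3E was above background on TCP (122) and CSHA (34.4). The part of these genes in the results was not tested. In bulk RNA, fewer cells that make a transcript and less transcript per cell cannot be told apart.

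Levels are given as the log2 of the processed signal minus the 75th percentile of the array, so 0 is the 75th percentile, and differences are differences of these log2 levels. The 75th percentile lay at signals of 355 (TCP), 423 (CS) and 338 (CSHA), and the lowest signal well above background was 24.1, 21.1 and 22.6. The error given after a difference is the SD that spots of like brightness on the same arrays would give it. It covers the array and not the culture.

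**Figure D1:**
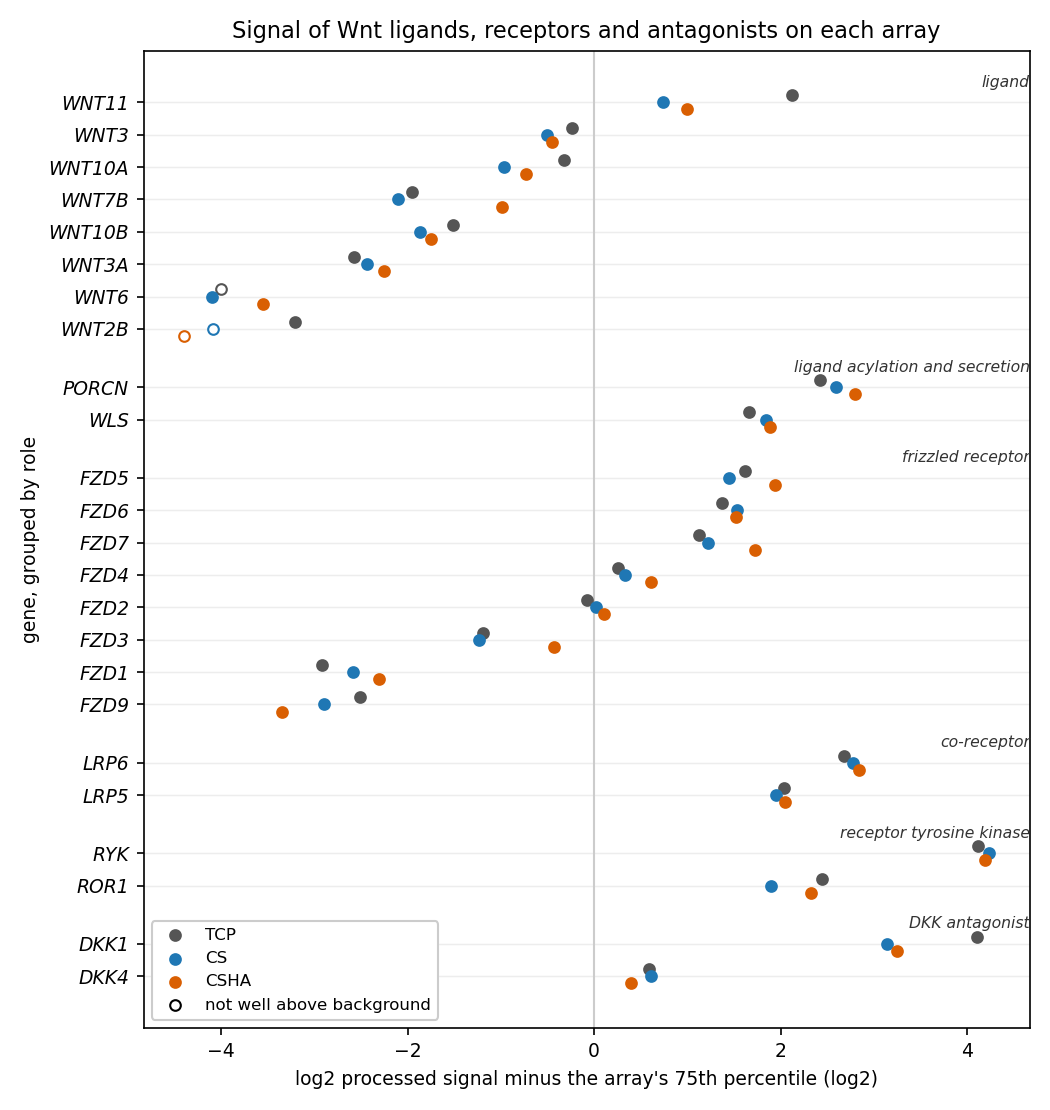
Normalized log2 signal (x axis) of the 24 members expressed on at least 1 array (y axis, grouped by role) on TCP (grey), CS (blue) and CSHA (orange). Open points were not well above background. WNT11 and DKK1 lay to the right on TCP, whereas WNT7B, FZD3 and FZD7 lay to the right on CSHA.

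The 19 ligand genes were mostly silent on these arrays. WNT3, WNT3A, WNT7B, WNT10A, WNT10B and WNT11 were expressed on every array, WNT2B on TCP only and WNT6 on CS and CSHA only. The other 11, WNT1, WNT2, WNT4, WNT5A, WNT5B, WNT7A, WNT8A, WNT8B, WNT9A, WNT9B and WNT16, were not well above background anywhere.

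WNT11, a ligand best known for beta-catenin-independent signaling, had the lowest differences on both membranes. That ranking takes only members well above background on both arrays compared. The levels were 2.12 (TCP), 0.74 (CS) and 0.99 (CSHA), from processed signals of 1547, 705 and 671. The TCP array was high and both membranes were low. The difference was -1.39 ± 0.07 on CS, or 2.61-fold lower, and -1.13 ± 0.07 on CSHA, or 2.19-fold lower. Of all genes with a value, 150 of 14469 were as low on CS and 413 of 14630 on CSHA. CSHA was above CS by 0.25 ± 0.07.

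WNT10A, a beta-catenin ligand, was printed on 10 spots and so was measured with a smaller error than most members. Its level was -0.33 ± 0.05 (TCP), -0.97 ± 0.08 (CS) and -0.73 ± 0.06 (CSHA) (SD of 10 spots). Spots on TCP ran from -0.42 to -0.27, those on CS from -1.08 to -0.81 and those on CSHA from -0.84 to -0.61. The TCP spots overlapped neither membrane, and the membranes overlapped each other. The differences were -0.64 ± 0.03 on CS and -0.41 ± 0.04 on CSHA.

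Its paralog WNT10B had levels of -1.52, -1.87 and -1.75 on TCP, CS and CSHA, with differences of -0.35 ± 0.14 and -0.24 ± 0.15, the latter within 2 SD of the spots. WNT3, which signals through beta-catenin, had levels of -0.23, -0.51 and -0.45, with differences of -0.27 ± 0.10 and -0.22 ± 0.11, the latter also within 2 SD. When the arrays were scaled on their spike-in probes instead, the CSHA differences of WNT10A, WNT10B and WNT3 turned to 0.02, 0.19 and 0.21, and those on CS did not turn.

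WNT7B, a ligand of epithelial cells, was the ligand with the highest difference from TCP on CSHA. The probe used gave levels of -1.95 (TCP), -2.10 (CS) and -0.99 (CSHA), so CSHA stood above TCP by 0.96 ± 0.15 and above CS by 1.11 ± 0.15, a 2.16-fold difference, while CS and TCP differed by -0.15 ± 0.17. Its 3 probes disagreed. A second probe was not well above background on TCP, lay at -3.75 on CS and -1.96 on CSHA, and was higher on CSHA than on CS by 1.79. The third lay at -3.64 on TCP and -3.54 on CS and was not well above background on CSHA, where it measured 0.26 lower than on TCP.

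WNT3A, another beta-catenin ligand, had levels of -2.58, -2.43 and -2.26, and its differences of 0.15 ± 0.22 and 0.32 ± 0.22 lay within 2 SD. WNT2B was measured on TCP at -3.20 with a signal of 38.5. At 24.9 on CS and 16.0 on CSHA it was not well above background. The CS signal lay above the lowest signal well above background, so its 1.84-fold lower value is the measured difference, not a minimum. CSHA was lower by at least 1.62-fold, within 2 SD. Both rest on a dim spot, and the error of these differences was 0.36 on CS and 0.51 on CSHA. Under other processing settings, spike-in scaling aside, they shrank to as little as -0.37 on CS and -0.34 on CSHA. WNT6 had signals of 22.1 on TCP, not well above background, 24.7 on CS and 28.9 on CSHA, all close to the limit. CSHA was at least 1.26-fold above TCP, within 2 SD, with no fold for CS.

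**Figure D2:**
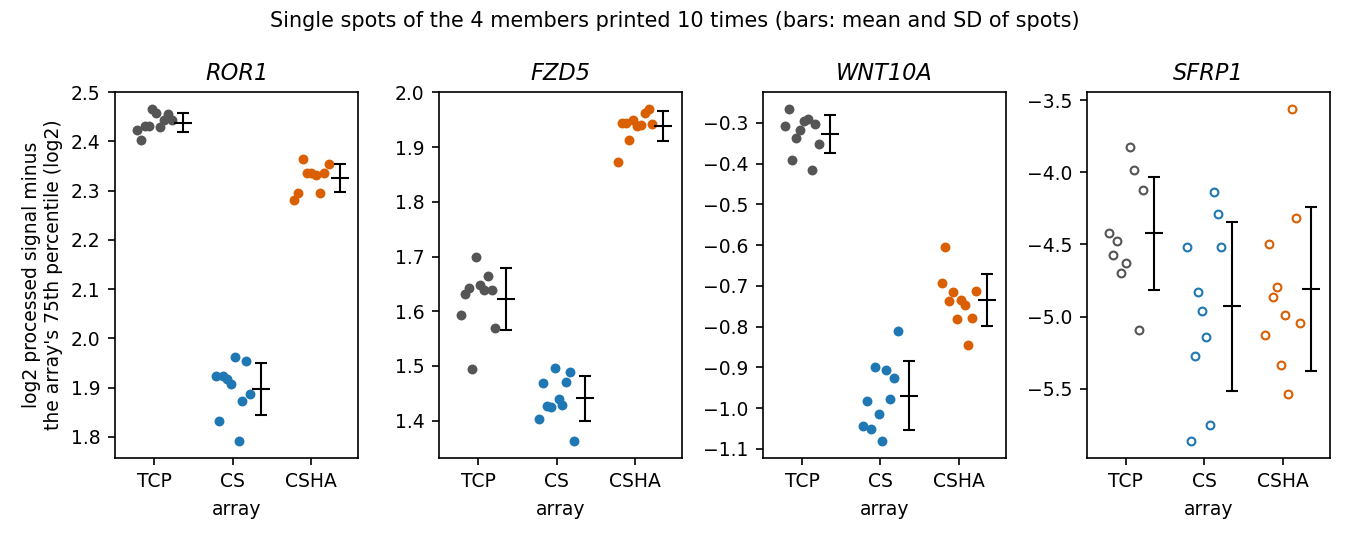
Normalized log2 signal (y axis, its range set per panel) of each kept spot of the 4 members printed 10 times, on TCP, CS and CSHA (x axis). Bars give the mean and SD of the spots, and open points were not well above background. For ROR1 and FZD5 the CS and CSHA spots did not overlap, for WNT10A the TCP spots stood apart from both membranes, and no kept SFRP1 spot was well above background.

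PORCN, the acyltransferase, had levels of 2.43 (TCP), 2.59 (CS) and 2.79 (CSHA). It was higher than TCP by 0.17 ± 0.06 (CS) and by 0.37 ± 0.07 (CSHA), and CSHA was above CS by 0.20 ± 0.06. WLS, the carrier, had levels of 1.66, 1.85 and 1.88 with differences of 0.19 ± 0.06 and 0.23 ± 0.07. The second WLS probe gave 0.16 and 0.24. The membranes were not separated for WLS, at 0.04 ± 0.07.

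Of the 10 Frizzled genes, 8 were expressed on every array, and FZD8 and FZD10 on none. The clearest measurement was FZD5, a receptor of the intestinal epithelium, which was printed on 10 spots. Its level was 1.62 ± 0.06 (TCP), 1.44 ± 0.04 (CS) and 1.94 ± 0.03 (CSHA) (SD of spots). Spots lay between 1.49 and 1.70 on TCP, between 1.36 and 1.5 on CS and between 1.87 and 1.97 on CSHA, so CSHA was high and overlapped neither of the others, while the highest CS spot just overlapped the lowest TCP spot. The differences were -0.18 ± 0.02 for CS against TCP, 0.32 ± 0.02 for CSHA against TCP and 0.50 ± 0.02 for CSHA against CS.

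FZD3, a receptor known for axon guidance and planar polarity, had levels of -1.20, -1.24 and -0.43 on TCP, CS and CSHA. CSHA was high, and TCP and CS differed by less than their error. The differences were -0.04 ± 0.12 on CS, 0.76 ± 0.12 on CSHA against TCP and 0.80 ± 0.11 on CSHA against CS. FZD7, a receptor of intestinal stem cells, lay at 1.13, 1.22 and 1.72, with 0.09 ± 0.07 on CS, 0.59 ± 0.08 on CSHA against TCP and 0.50 ± 0.07 on CSHA against CS. FZD4, best known as the receptor of norrin, lay at 0.26, 0.33 and 0.61, with 0.07 ± 0.09, 0.35 ± 0.09 and 0.28 ± 0.08 in the same order.

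FZD2 and FZD6 showed smaller differences. FZD2 had levels of -0.08 (TCP), 0.02 (CS) and 0.11 (CSHA), and CSHA was above TCP by 0.19 ± 0.09. For FZD6 the levels were 1.38, 1.53 and 1.52, with 0.16 ± 0.07 on CS and 0.14 ± 0.07 on CSHA. FZD1 and FZD9 were dim, with signals of 47.0 to 70.3 and 33.3 to 62.2 over the arrays. FZD1 had levels of -2.92, -2.59 and -2.31 and differences of 0.33 ± 0.23 on CS and 0.61 ± 0.24 on CSHA. FZD9 had levels of -2.51, -2.90 and -3.34 and differences of -0.38 ± 0.22 and -0.83 ± 0.28. It was the only Frizzled lower on CSHA than on TCP, and its difference between CSHA and CS (-0.45 ± 0.27) turned sign under another background correction. FZD1 on CS turned to -0.0045 with the deposited values.

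Both co-receptors differed little between the surfaces, by at most 0.17. LRP5 lay at 2.04, 1.95 and 2.04, with -0.09 ± 0.06 on CS and 0.00 ± 0.07 on CSHA. LRP6 lay at 2.67, 2.77 and 2.84, with 0.10 ± 0.06 on CS and 0.17 ± 0.06 on CSHA.

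ROR1, a receptor tyrosine kinase for WNT5A, was printed on 10 spots and was low on CS. Its level was 2.44 ± 0.02 on TCP, 1.90 ± 0.05 on CS (both 10 spots) and 2.33 ± 0.03 on CSHA (9 spots kept). Spots ran from 2.4 to 2.47, from 1.79 to 1.96 and from 2.28 to 2.37, and no array's spots overlapped those of another. The differences were -0.54 ± 0.02 on CS, -0.11 ± 0.02 on CSHA against TCP and 0.43 ± 0.02 on CSHA against CS. The other 2 probes of ROR1 were lower on both membranes, at -0.92 and -0.32 on CS and -0.54 and -0.26 on CSHA. Under spike-in scaling ROR1 on CSHA turned to 0.32 above TCP. RYK, the atypical kinase receptor, lay at 4.12, 4.24 and 4.19, with 0.12 ± 0.06 on CS and 0.07 ± 0.06 on CSHA. ROR2 was not well above background on any array.

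**Figure D3:**
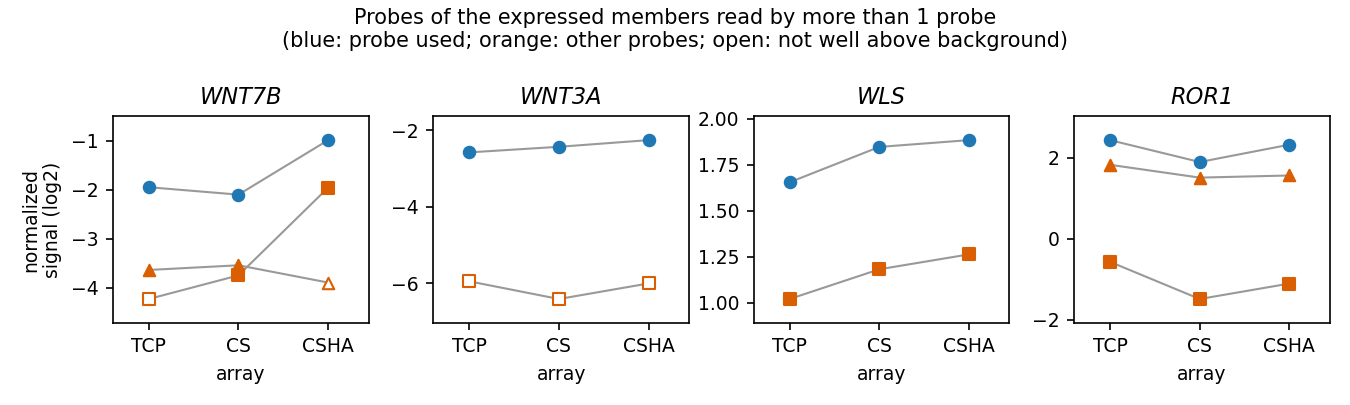
Normalized log2 signal (y axis, its range set per panel) of every probe of the 4 expressed members read by more than 1 probe, on TCP, CS and CSHA (x axis). The probe used is blue, the others are orange, and open points were not well above background. The WLS probes ran in parallel, all ROR1 probes were lowest on CS, and 2 of the 3 WNT7B probes were highest on CSHA while the third was not well above background there.

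The antagonists were divided by family. None of the 4 SFRP genes on the array was well above background anywhere. The 10 spots of SFRP1 had signals of 10.4 to 25.1 on TCP, where 1 outlying spot was left out, 7.26 to 24.0 on CS and 7.27 to 28.6 on CSHA, which left no level to compare. The gene outside the set, FRZB, was above background on CS only, with signals of 23.6 (TCP), 34.3 (CS) and 14.8 (CSHA). DKK2 and DKK3 were not well above background either.

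DKK1, a secreted inhibitor of LRP5 and LRP6, was the expressed antagonist with the lowest differences from TCP on both membranes, although its level was the highest. The levels were 4.10 (TCP), 3.14 (CS) and 3.24 (CSHA), from processed signals of 6101, 3725 and 3195, so TCP was high and both membranes were low. The difference was -0.96 ± 0.06 on CS (1.95-fold lower) and -0.86 ± 0.07 on CSHA (1.82-fold lower), and the membranes differed by 0.10 ± 0.06. As low as DKK1 were 300 of 14469 genes on CS and 808 of 14630 on CSHA. DKK4, another antagonist of LRP5 and LRP6, lay at 0.59, 0.61 and 0.39. It differed from TCP by 0.02 ± 0.08 (CS) and -0.19 ± 0.09 (CSHA), and the latter turned to 0.24 under spike-in scaling.

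Each membrane was compared with TCP to see what the surface changed in this set. On CS a value was obtained for 23 members, 1 of them a bound. Of these, 11 were higher than on TCP, beside 57.2% of all genes higher, and 12 were lower. At least 2-fold higher were 0 members, beside 1.38% of all genes, and at least 2-fold lower was 1 member, WNT11, beside 1.91%. The median of the 23 was -0.04, and that of all genes 0.05. Of the 23 differences, 12 exceeded 2 SD of the spots, 4 higher and 8 lower. This count was not made over all genes, here or in the comparisons below, so it cannot be set beside a share of them.

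For CSHA against TCP, 24 members had a value, 2 of them bounds. Higher were 15, beside 61.8% of all genes, and lower were 9. There were 0 members at least 2-fold higher, beside 3.05%, and 1 at least 2-fold lower, again WNT11, beside 3.98%. Under spike-in scaling 20 members were higher, 4 of them (FZD1, FZD3, FZD7 and WNT7B) at least 2-fold, and 0 were at least 2-fold lower, while the median of all genes moved to 0.56. No share of all genes is given under that scaling, so these counts cannot be read as a result about the members. Without spike-in scaling, the median of the 24 members was 0.15 and that of all genes was 0.13. The 16 differences over 2 SD of the spots were 10 higher and 6 lower.

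By role, the ligands lay below the median of all genes and the Frizzled receptors on CSHA above it. The median of the ligands was -0.35 on CS, where 1 of 7 was higher, and -0.23 on CSHA, where 3 of 8 were higher. These counts and medians include WNT2B, which had values only through TCP and could only count as lower. On CSHA they include WNT6, which had a value only through CSHA and could only count as higher. The directions of these bounds were fixed by the background filter. The median of the 8 Frizzled genes was 0.08 on CS, with 5 higher, and 0.33 on CSHA, with 7 higher. Both comparisons share the TCP array, so a high or low spot there moves both differences of a gene together. Within-role counts this small were described and not tested.

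**Figure D4:**
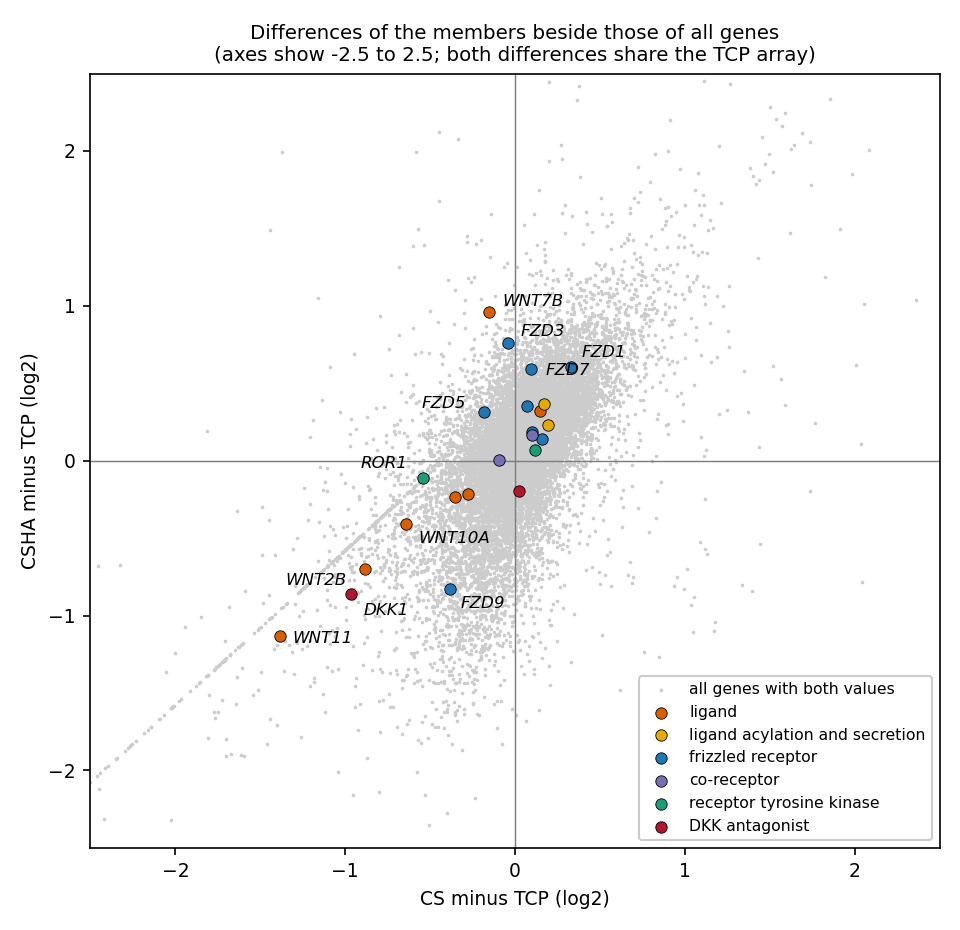
Difference in log2 level of CS from TCP (x axis) and of CSHA from TCP (y axis) for the 23 members with both values, coloured by role, over all genes with both values (small grey points, axes cut at 2.5 either way). WNT11, DKK1 and WNT10A lay low on both axes and WNT7B, FZD3 and FZD7 high on the CSHA axis, and the straight line of grey points holds genes measured on TCP only, whose differences are bounds.

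The comparison of CSHA with CS does not use the TCP array. By the paper's methods CSHA was also crosslinked chemically, a step not described for CS. The hyaluronan graft, the crosslinking and the single culture and array of each membrane therefore cannot be told apart. Here 23 members had a value, of which 19 were higher on CSHA, beside 58.3% of all genes, and 4 were lower. At least 2-fold higher was 1 member, WNT7B, beside 2.3% of all genes, and 0 were at least 2-fold lower, beside 2.17%. WNT7B lay under 2-fold with normexp background correction (0.73), with the deposited values (0.76) and as the mean over its probes (0.85), which left 0 members at least 2-fold higher. The median was 0.17, and 0.07 for all genes. Of the 10 differences over 2 SD of the spots, 9 were higher and 1 was lower, the lower being DKK4 at -0.21 ± 0.08. All 7 ligands with a value were higher on CSHA, with a median of 0.23, and 6 of 8 Frizzled genes were, with a median of 0.28.

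The genes around this set were described from lists of the pathway. Counts of higher and lower genes in each list stand beside 57.2% of all genes higher on CS and 61.8% on CSHA. With lists this small they were not tested and are not read as changes of the pathway. In the list of R-spondins, their LGR receptors and the ligases they hold back, 6 of 9 genes were expressed on every array. On CS 3 were higher and 3 lower than on TCP, from LGR5, the stem cell receptor, at 0.48 to RSPO3, a secreted potentiator, at -0.16. Both were dim on TCP, CS and CSHA, with signals of 32.1, 53.5 and 36.9 for LGR5 and 34.8, 37.2 and 45.1 for RSPO3. The second RSPO3 probe was not well above background on any array. No error from spots was computed for the genes of these lists. On CSHA all 6 were counted as higher, up to RNF43, the ligase that clears Frizzled from the surface, at 0.59. LGR6, the lowest at 0.00, was unchanged and lay below the median of all genes. RSPO3 was highest against CS, at 0.60, and LGR5 lowest, at -0.21. None passed 2-fold.

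Among 18 other extracellular inhibitors and co-receptors, 9 were higher and 3 lower on CS, and 8 higher and 5 lower on CSHA. SOSTDC1, a secreted inhibitor related to sclerostin, was the lowest on CS at -0.86 and lay at -0.95 on CSHA. VANGL2, a planar polarity protein, was the highest on CS at 0.27, from dim signals of 37.1 on TCP and 53.3 on CS. TRABD2A, a protease that inactivates Wnt ligands, lay at 0.14 on CS but at -1.11 on CSHA, and both of its probes were at least 2-fold lower on CSHA than on TCP. Against CS it was the lowest of the list, at -1.25. GPC4, a cell surface heparan sulfate proteoglycan, was the highest on CSHA, at 0.95. NOTUM, which removes the lipid of Wnt ligands, was above background on CSHA only and by 1 of its 2 probes, with a dim signal of 30.3, at least 0.84 above CS. Its other probe was not well above background on any array.

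Of 14 destruction complex genes 12 were named by a matched probe, all expressed, with 7 higher and 5 lower on CS and 8 higher and 4 lower on CSHA. AXIN2, a scaffold that is also a common Wnt target, was the lowest in both comparisons, at -0.55 on CS and -1.04 on CSHA, but its second probe gave -0.08 and -0.14. AMER1 was the highest on CS at 0.39 and APC2 the highest on CSHA at 0.72. Against CS, APC2 was also the highest, at 0.98, and CSNK1D the lowest, at -0.58.

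At the level of Dishevelled, 12 genes were read, with 6 higher and 3 lower on CS, and 7 higher and 3 lower on CSHA. PRICKLE1, a planar polarity protein, was dim and lay lower on CS by 1.46. On CSHA, where it was not well above background, it measured 1.83 lower. CSNK1G2, a kinase of LRP6, was higher by 1.22 on CSHA and by 1.08 against CS, where its second probe gave 0.97 and 0.79. The highest on CS was CSNK1G3, at 0.38, and DVL3 was the lowest against CS, at -0.49.

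Of 15 nuclear genes 11 were expressed, 6 higher and 5 lower on CS and 8 higher and 3 lower on CSHA. TLE4, a co-repressor, was the highest on both, at 0.40 on CS and 1.1 on CSHA. The lowest on CS was BCL9L, a beta-catenin partner, at -0.55. On CSHA its probes disagreed, at 0.31 for the probe used and -1.32 for the other. TCF7 was the lowest on CSHA, at -0.17, by the probe used, but its second probe gave 1.1 there. Against CS, BCL9L was the highest at 0.86 by the probe used, while its other probe gave -0.76, and BCL9 was the lowest at -0.14.

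**Figure D5:**
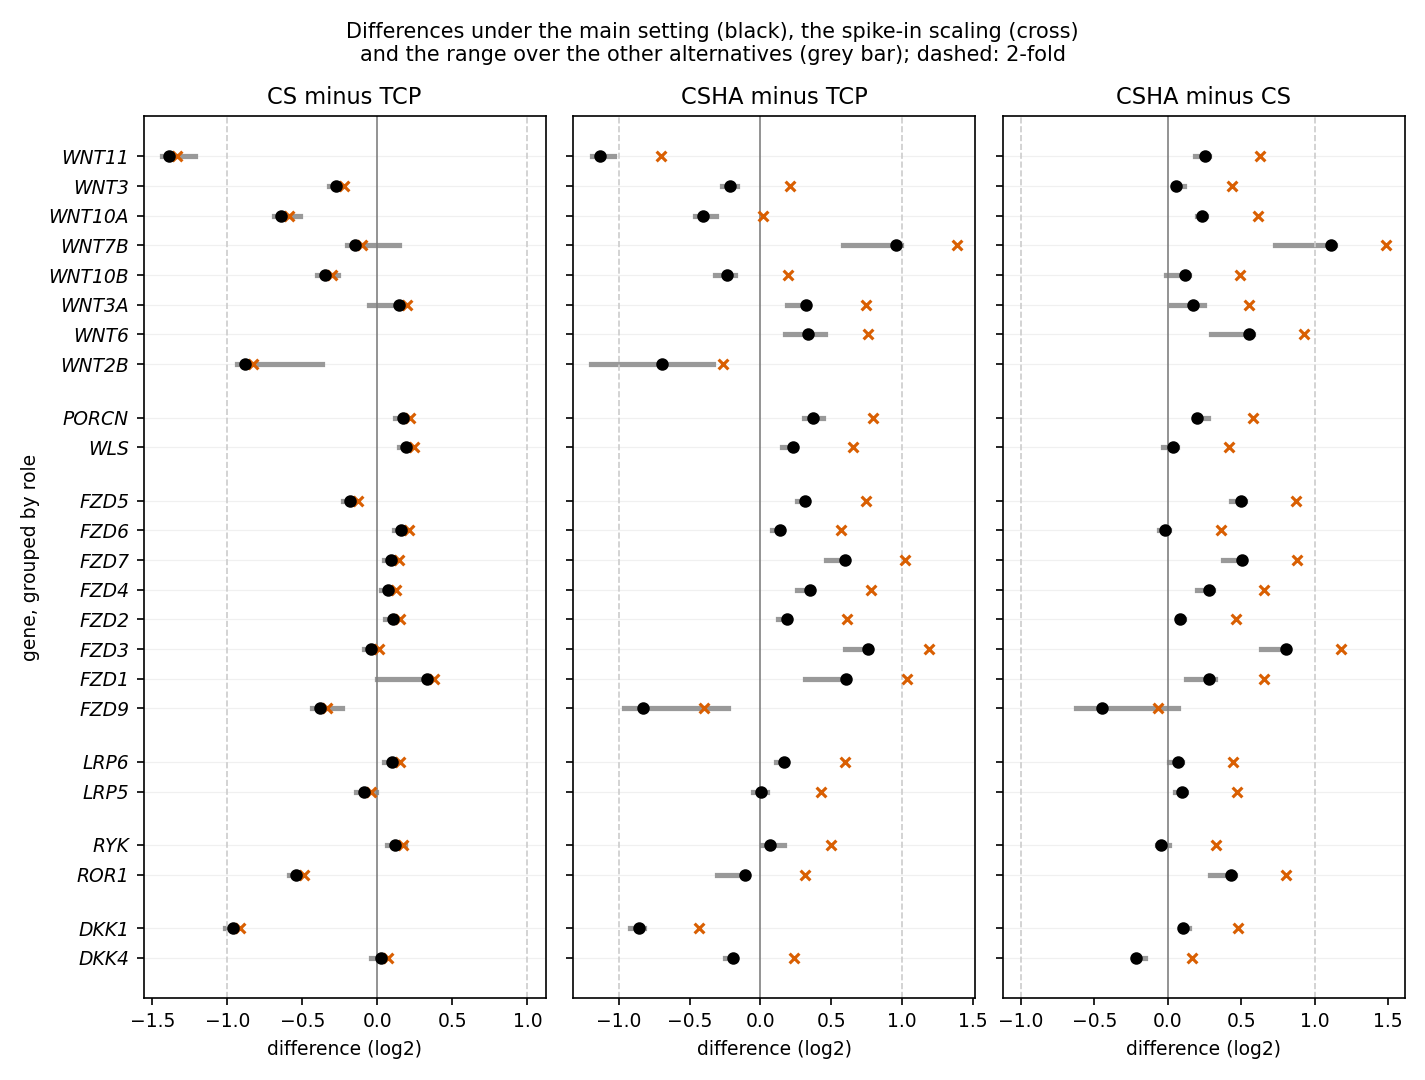
Difference in log2 level (x axis) of each expressed member (y axis) for CS against TCP, CSHA against TCP and CSHA against CS. Black points are the values of the text, crosses those under spike-in scaling, grey bars the range over the other alternatives and dashed lines 2-fold. WNT11 and DKK1 lay below 0 on both membranes under every setting, and the crosses lay to the right of the points in both comparisons of CSHA.

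The order of the surfaces depended on the scaling where CSHA was involved. Scaling on the spike-in probes placed the median of all genes at 0.56 for CSHA against TCP and at 0.45 for CSHA against CS, and at 0.09 for CS against TCP. Under it WNT11 lay at -0.71 and DKK1 at -0.43 on CSHA, still below TCP, although all genes had moved up. Under the other alternatives WNT11 on CS held between -1.44 and -1.22, and on CSHA between -1.19 and -1.04, and DKK1 between -1.02 and -0.94 on CS and between -0.92 and -0.82 on CSHA.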

How the data were processed

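Total RNA of HT29 cells from TCP, CS and CSHA was labelled with Cy3 and hybridised to 3 single-colour Agilent arrays, 1 per condition, which shared 1 slide and 1 scan. The authors deposited the scanner software's processed signal intensity per spot, after background correction. Deposited with it were log2 values, shifted to the 75th percentile and centred per spot. File headers name Feature Extraction 10.7.3.1, and the methods name another version. The submitters' processing notes name limma. 0 columns were left unused. Probe positions in the files use hg19, and no coordinate of them is printed.

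Processed signals under 1 were set to 1, control and outlier spots were left out, spots of a probe were averaged, and log2 values were shifted by the 75th percentile of the array. Accessions were matched to symbols through RefSeq (GRCh38.p14): 30004 of 50599 probes were named. The probe with the highest mean level stood for each gene. Comparisons needed a signal well above background on 1 array of the pair, and where the other lacked it the difference is called a bound. The dim array then took its own level or the array's lowest level well above background, whichever was higher. Where its own level was higher, the bound is the measured difference. Bounds that pointed away from the array with the signal were dropped. Genes were counted at 2-fold. The SD from spots used the 50 probes printed 10 times that were nearest in signal, and 0 probes were saturated. The precision is limited by 1 array per condition.

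All members expressed on any array are named with their values, and of the other pathway lists the highest and lowest gene of each comparison and every gene at least 2-fold apart. One marker gene is not reported here. The members and lists were chosen with earlier results of these data known. Scaling, background correction, filter, probe choice and threshold were varied. Python 3.11.15, pandas 2.3.3, R 4.3.3 and limma 3.58.1 (normexp and quantile) were used, and the scripts were tested on simulated data.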

Additional observations from a re-analysis of the deposited data

How the results depend on the processing

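Over 10 alternatives, 578 of 694 member values moved by less than the SD from spots, 107 moved by more, and 9 more changed sign from a value larger than that SD. Many of the unmoved values were fixed in advance, so this tally does not measure robustness. Using no filter, or requiring both arrays well above background, could not change a value other than a bound. The mean over probes could change only members with more than 1 probe above background. One alternative, the 75th percentile over single spots, was chosen after seeing the data. With spike-in scaling, CSHA against TCP changed sign for DKK4 (0.24), ROR1 (0.32), WNT3 (0.21), WNT10A (0.021) and WNT10B (0.19), and CSHA against CS for DKK4 (0.16). That setting moved the median of the members to 0.58 on CSHA against TCP and to 0.55 against CS, with 4 and 2 members at least 2-fold higher and 0 lower against TCP. FZD1 on CS turned to -0.0045 with the deposited values, and FZD9 for CSHA against CS to 0.068 with them and to 0.0050 with normexp background correction. WNT7B passed 2-fold against CS under neither of those nor the mean over probes, which left 0 members higher. With no filter on background all 44 members had a value, and the medians became -0.37, -0.055 and 0.28 for CS against TCP, CSHA against TCP and CSHA against CS. Over all genes the medians under this setting were -0.050, 0.0099 and 0.16. The members at least 2-fold higher were then 1, 1 and 3 and those lower 5, 3 and 1, and CSHA exceeded CS in 37. These counts include members well above background on no array, which were 20 of the 44. Among them were WNT5B, WNT7A, WNT9A and WNT9B, lower on CS, and WNT1 and WNT5B, higher against CS. Such counts rest on background signal and are not results about the members. With quantile normalization, and with the 75th percentile over detected probes, 2 members were at least 2-fold lower on CS, and quantile normalization put the median of CSHA against CS at 0.095. A threshold of 1.5-fold counted 4 lower on CS, 4 higher and 4 lower on CSHA, and 2 higher against CS, while one of 3-fold counted 0 in each of these. The causes were not tested beyond what these settings change. No paired analysis was possible because each condition had 1 array, and no replicate could be left out. By the software's looser flag, positive and significant, 33 members were expressed on TCP and 31 on each membrane. No share of all genes is given for the alternative settings, the other thresholds or the looser flag, so these counts describe the members alone. Signals near background limit WNT2B, WNT6, FZD1, FZD9 and WNT3A.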
